A study of Caenorhabditis elegans with 22 samples.

Results

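The hairpins cel-mir-2208a, cel-mir-2208b and cel-mir-2209a, written below without the species prefix, are microRNA precursors of Caenorhabditis elegans that lie together on chromosome IV, and they make up 3 of the 250 hairpins counted in this study. They were taken by name, and were chosen by their counts in these same libraries, with the differences with age and treatment already known. Their levels and differences over the 8 groups are therefore given here as a description. No p-value is attached to them, and calls of the fit across all hairpins are printed only as counts beside the share of all hairpins called.

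MicroRNAs are cut from short hairpin transcripts into single strands that guide Argonaute proteins to partly matching messenger RNAs, which lowers their translation or stability. Target choice rests mainly on the seed, a short stretch near the 5′ end, so hairpins with the same seed are grouped as a family. Neighbouring hairpins are often transcribed together and processed from a shared precursor, although each can still be matured and degraded at its own rate. mir-2209a has been listed in the literature with the mir-58 family, the abundant worm relatives of the fly growth regulator bantam. Specific functions of mir-2208a and mir-2208b are not given here.

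The samples were whole hermaphrodites of N2, the standard wild-type strain, and all tissues and the eggs inside the worms contributed to each library. Rotenone worms, labelled with a concentration of 0.039441 µg/ml, and 2-deoxyglucose worms, with no dose given in the labels used here, were sampled at 1, 5, 10 and 20 days of age. Rotenone blocks complex I of the mitochondrial respiratory chain, and 2-deoxyglucose is a glucose analogue that blocks glycolysis. Each group had 3 libraries, apart from the day 20 groups with 2 each, which makes 22 in all. The series title names DMSO, a solvent, where the sample labels name 2-deoxyglucose; the names of the sample labels are used. No untreated group was analysed here, so a difference between the treatments cannot be assigned to either compound.

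The summed hairpin counts of a library ranged from 664900 to 2233973, and a single count stood for between 0.448 and 1.50 CPM (counts scaled to a library total of 1e6) by raw totals. Levels below are CPM after scaling by the trimmed mean of M values (TMM). The labels do not say whether replicate libraries were grown as independent cultures, and their spread may be technical. Hairpins that mark muscle (mir-1), intestine (mir-60), neurons (lsy-6, mir-124, mir-790, mir-791) and glia (mir-228) were counted in each of the 22 libraries. In whole worms, fewer cells of a type and less RNA per cell cannot be told apart.

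In the WBcel235 annotation (Ensembl release 115), mir-2208a lies on the plus strand of chromosome IV from 1021772 to 1021832 (gene WBGene00194822). mir-2208b lies on the same strand from 1026580 to 1026640 (WBGene00194823), and mir-2209a from 1027101 to 1027164 (WBGene00194824). The space between mir-2208a and mir-2208b is 4747 bases, and that between mir-2208b and mir-2209a is 460. Relatives of mir-2209a flank the group: mir-2209c follows 53 bases downstream on the plus strand, at 1027218 to 1027281, and mir-2209b lies 406 bases before mir-2208a on the minus strand, at 1021303 to 1021365. The 5 hairpins span 5979 bases, overlap no protein-coding gene, and have 0 other annotated microRNA genes within 10 kb. The nearest protein-coding genes are rbm-39, an RNA-binding protein gene that ends 1744 bases before the cluster, and abhd-14, on the minus strand, whose nearer end lies 505 bases after it. The annotation gives each hairpin 2 mature arms, but the deposited counts hold a single value per hairpin, so the arms were not separated. The build used by the authors is not given in the sources used here, and the positions were found by hairpin name.

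**Figure D1:**
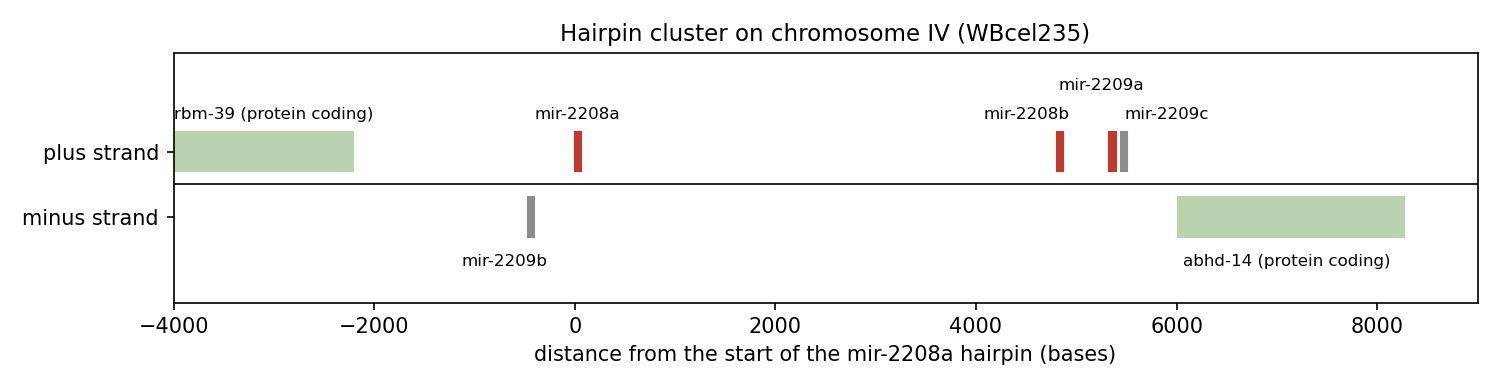
Map of the hairpins, with distance in bases from the start of mir-2208a on the x axis and the strand on the y axis; members are red, the relatives mir-2209b and mir-2209c grey and protein-coding genes green (rbm-39 runs past the left edge). mir-2208a stands 4747 bases from mir-2208b, and mir-2208b, mir-2209a and mir-2209c lie close together.

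The hairpin mir-2208a was scarce in young worms and higher at day 20, above all in 2-deoxyglucose worms. At day 1 it held 1.62, 9.28 and 3.08 CPM in the 3 rotenone libraries and 18.5, 13.6 and 13.5 CPM in the 3 2-deoxyglucose libraries. The rotenone libraries all lay below the 2-deoxyglucose libraries at this age, with 24 counts in all against 74. The log2 difference was -1.71 ± 0.40 (SE). In the fit, 1 of the 3 members was called at day 1, mir-2208a on the lower side, where 11.3% of the 141 tested hairpins were called, 2.13% as lower. The call was lost without rotenone library 1 (-1.43), rotenone library 3 (-1.39) or 2-deoxyglucose library 1 (-1.51), and the difference was -2.57 without rotenone library 2, the highest of its group.

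At day 5 the levels of mir-2208a were 11.4, 16.1 and 12.4 CPM in rotenone and 13.9, 19.8 and 15.1 CPM in 2-deoxyglucose. At day 10 they were 16.3, 26.5 and 45.7 CPM in rotenone and 28.5, 27.7 and 21.9 CPM in 2-deoxyglucose. The treatments overlapped at both ages, with log2 differences of -0.23 ± 0.38 at day 5 and 0.21 ± 0.31 at day 10. The direction was not stable at either age: it was 0.05 at day 5 with sequencing lane as a factor, and -0.25 at day 10 without rotenone library 3.

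At day 20 mir-2208a held 132 and 115 CPM in rotenone and 1042 and 1219 CPM in 2-deoxyglucose. The mean was 124 ± 11.8 CPM in rotenone and 1131 ± 125 CPM in 2-deoxyglucose (SD, n = 2 each). The libraries of each treatment lay close together and far from those of the other. The log2 difference was -3.19 ± 0.27, and it lay between -3.47 and -3.24 when each of the 4 libraries was left out in turn. The fit called 1 of the 3 members lower at this age, against 0.709% of 141 hairpins. That single hairpin was mir-2208a.

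With age, mir-2208a in rotenone worms was higher at each step: all day 5 libraries lay above all day 1 libraries, all day 10 above all day 5, and all day 20 above all day 10. The separation of days 5 and 10 was narrower than 1 count. It rested on 16.3 CPM in day 10 library 1 against 16.1 CPM in day 5 library 2. A single count in that day 10 library was worth 1.02 CPM. The share of all hairpins that separated at these steps was not counted. In 2-deoxyglucose worms the day 1 and day 5 libraries overlapped, the day 10 libraries lay above those of day 5, and the day 20 libraries lay far above the rest. The step from day 10 to day 20 was 4.19-fold by the ratio of group means in rotenone and 43.4-fold in 2-deoxyglucose. The log2 change from day 1 to day 20 was 4.69 ± 0.34 in rotenone and 6.17 ± 0.28 in 2-deoxyglucose. Without rotenone day 1 library 2 the rotenone change was 5.55. Ordered by mean, the 4 lowest groups were rotenone day 1, rotenone day 5, 2-deoxyglucose day 1 and 2-deoxyglucose day 5, of which rotenone day 1 stood clear of the others and the rest overlapped their neighbours. 2-deoxyglucose day 10 came next, separate from 2-deoxyglucose day 5, and overlapped rotenone day 10. Above these were rotenone day 20 and 2-deoxyglucose day 20, each separate from the group below.

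**Figure D2:**
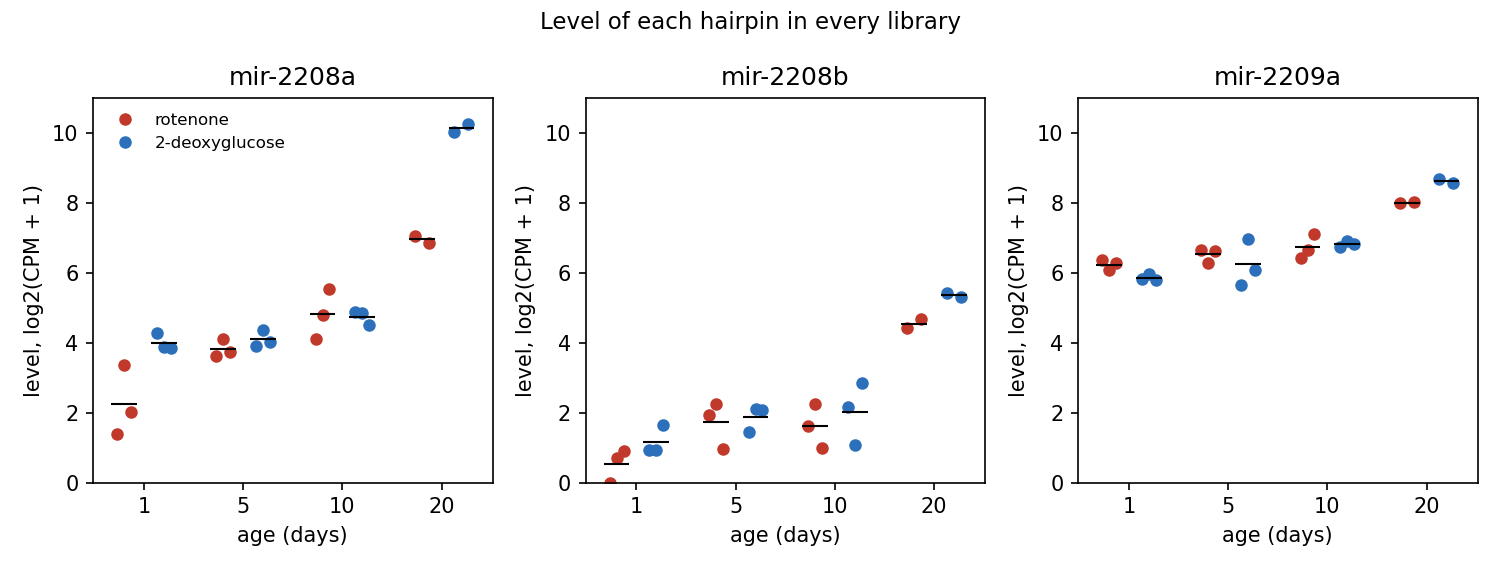
Level of each member in every library, as log2(CPM + 1) on the y axis and age in days on the x axis; each point is a library (red rotenone, left; blue 2-deoxyglucose, right) and each black line is the mean of the plotted values. mir-2208a reaches 1042 and 1219 CPM in 2-deoxyglucose worms at day 20, against 132 and 115 CPM in rotenone worms of that age, and the 3 hairpins are highest at day 20 in both treatments.

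mir-2208b was close to the limit of detection until day 10 and clearly counted at day 20. Raw counts are given here because single counts decide its CPM. At day 1 there were 0, 1 and 2 counts in the rotenone libraries and 2, 1 and 3 in the 2-deoxyglucose libraries. At day 5 there were 5, 7 and 1 counts in rotenone and 2, 2 and 3 in 2-deoxyglucose, and at day 10 there were 2, 4 and 1 in rotenone and 4, 1 and 10 in 2-deoxyglucose. Over these ages no library exceeded 10 counts, and the treatments overlapped in CPM at days 5 and 10.

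The day 20 libraries held 24 and 33 counts of mir-2208b in rotenone and 38 and 45 in 2-deoxyglucose. In CPM this was 20.4 and 24.4 in rotenone and 42.1 and 38.6 in 2-deoxyglucose, and the treatments did not overlap. The log2 difference was -0.84 ± 0.31. The fit did not call it, whereas a fit of the 4 day 20 libraries alone, with a log2 difference of -0.999, did. With lane as a factor the difference was -1.27. The 3 members each had non-overlapping treatments at day 20, all lower in rotenone, where 56.7% of the 141 hairpins did not overlap, and 17.0% of the 141 lay lower in rotenone.

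From day 1 to day 20, mir-2208b was 38.5-fold higher in rotenone worms by pooled counts scaled by TMM library size (57 against 3 counts; exact 95% interval 12.5 to 192). It was 31.3-fold higher in 2-deoxyglucose worms (83 against 6 counts; 13.8 to 87.7). These intervals cover counting error only, and reads copied by PCR are not independent molecules. Most of the increase fell between days 10 and 20, with a ratio of 9.87 (4.49 to 25.6) in rotenone and 9.78 (5.60 to 18.3) in 2-deoxyglucose. The 6 groups of days 1 to 10 formed an unbroken run of overlapping neighbours apart from rotenone day 1, the lowest, while both day 20 groups stood apart.

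mir-2209a varied least of the members over the 8 groups: its group means spanned 2.75 on the log2 CPM scale, beside 4.38 for mir-2208b and 7.71 for mir-2208a. At day 1 it held 81.1, 66.2 and 76.5 CPM in rotenone and 55.8, 61.8 and 54.5 CPM in 2-deoxyglucose, so the rotenone libraries were all higher. The log2 difference was 0.38 ± 0.22 and was not called. All 3 members had non-overlapping treatments at day 1, mir-2208a and mir-2208b lower in rotenone and mir-2209a higher, where 31.2% of the 141 hairpins did not overlap, 17.0% lower and 14.2% higher in rotenone. For mir-2208b this rests on CPM up to 0.880 in rotenone and from 0.909 in 2-deoxyglucose, and the raw counts overlapped. Its log2 difference was -1.02 ± 0.86, and the ratio of pooled counts was 0.457 with an exact 95% interval of 0.0739 to 2.14, so a difference was not detectable at this depth.

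At day 5 mir-2209a held 99.9, 77.4 and 98.0 CPM in rotenone and 49.5, 125 and 66.8 CPM in 2-deoxyglucose. The treatments overlapped through 2-deoxyglucose library 2, which was the highest of all 6. The log2 difference was 0.25 ± 0.22; without that library it was 0.66 and was called, and without 2-deoxyglucose library 1 it was -0.03. At day 10 the levels were 84.8, 99.4 and 136 CPM in rotenone and 105, 119 and 113 CPM in 2-deoxyglucose, with a log2 difference of -0.07 ± 0.21. The fit called 0 of the 3 members at day 5, where 9.93% of hairpins were called, and 0 of 3 at day 10, where 5.67% were called. The treatments overlapped in all 3 members at both ages, whereas 17.7% of hairpins at day 5 and 31.2% at day 10 did not overlap.

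At day 20 mir-2209a held 252 and 259 CPM in rotenone and 411 and 376 CPM in 2-deoxyglucose. The treatments did not overlap, and the log2 difference was -0.62 ± 0.24, which was not called. A fit of the day 20 libraries alone gave -0.79 and called it, and without 2-deoxyglucose library 2 the difference was -0.97. The change from day 1 to day 20 was 1.78 ± 0.22 in rotenone and 2.78 ± 0.23 in 2-deoxyglucose on the log2 scale, smaller in both treatments than the fitted change of mir-2208a and mir-2208b. In the order of group means, the day 1 groups were lowest, the 4 groups of days 5 and 10 overlapped their neighbours, and the day 20 groups stood apart.

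Between days 1 and 20 the fit called 3 of the 3 members higher in rotenone, where 63.8% of the 141 hairpins were called, 34.0% as higher. It also called 3 of 3 higher in 2-deoxyglucose, where 62.4% were called, 28.4% as higher. Without any overlap of libraries, 3 of 3 lay higher at day 20 in both treatments; 78.0% of hairpins did not overlap in rotenone (39.0% higher) and 78.7% in 2-deoxyglucose (36.9% higher). The median log2 change of the members was 4.69 in rotenone and 4.87 in 2-deoxyglucose, beside medians over all hairpins of -0.03 and -0.09 in the same treatments. The members were picked with these values known, so nothing is read from the counts. The compared day 20 and day 1 libraries shared 0 sequencing lanes, and so did the treatments at each age. The 6 calls remained with lane as a factor.

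Days 10 and 20 shared 2 lanes in each treatment, which allowed a comparison within lanes. For mir-2208a the day 20 library exceeded the day 10 library of its lane by 4.98-fold and 2.52-fold in rotenone and by 36.6-fold and 44.0-fold in 2-deoxyglucose. For mir-2209a the ratios were 2.53 and 1.90 in rotenone and 3.90 and 3.17 in 2-deoxyglucose. For mir-2208b they were 5.39 and 25.1 in rotenone and 12.2 and 34.8 in 2-deoxyglucose, and rested on between 1 and 4 counts at day 10. Each of the 12 ratios was above 1. For each member, all day 20 libraries lay above all day 10 libraries of their treatment. Any pairing of these libraries therefore gives ratios above 1, and the direction within lanes adds nothing to that separation. The share of all hairpins that separated between days 10 and 20 was not counted.

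**Figure D3:**
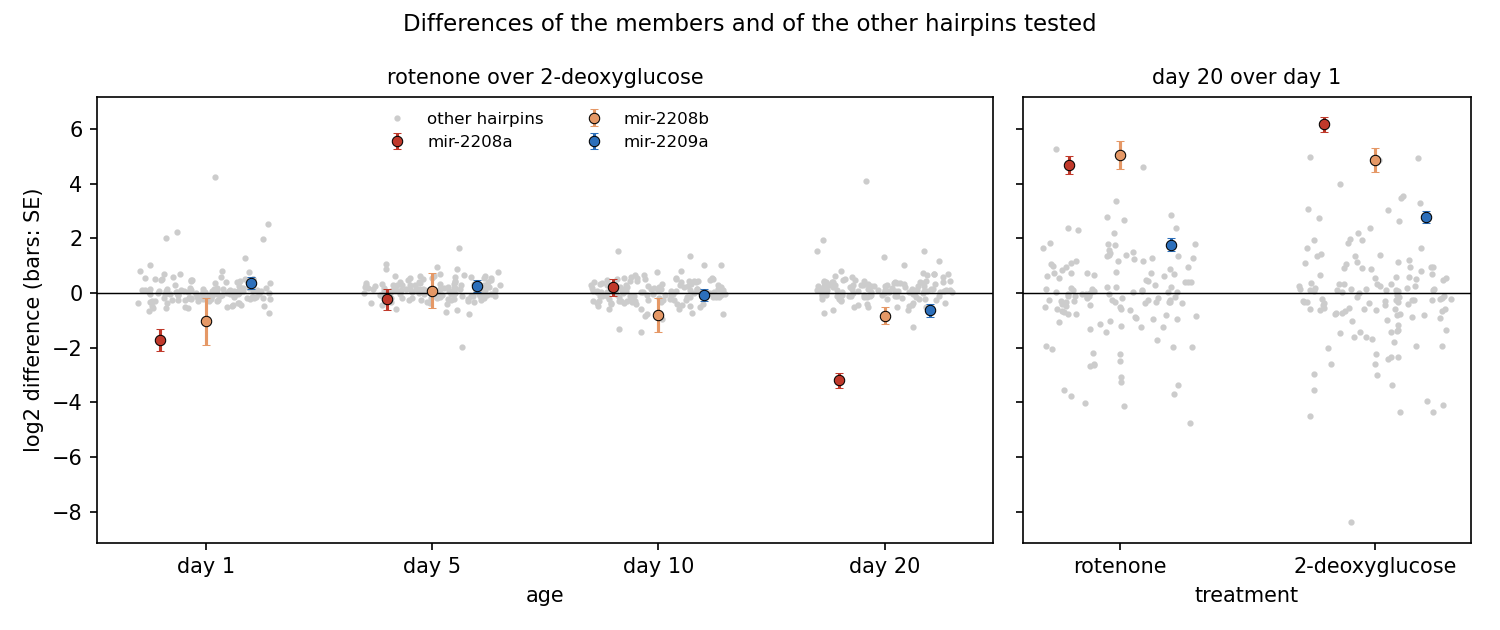
Log2 differences of rotenone over 2-deoxyglucose at each age (left) and of day 20 over day 1 in each treatment (right), with bars for the SE of the members (red mir-2208a, orange mir-2208b, blue mir-2209a) and grey points for the other tested hairpins. mir-2208a stands at -3.19 at day 20 in the left panel, the lowest of the 141, and the 3 members lie above 0 in the right panel.

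The make-up of the cluster also changed, a measure that needs no scaling between libraries. Shares were taken of the summed counts of the 5 hairpins, which are 61 to 64 bases long; dividing counts by length moved no share by more than 1.12 percentage points. At days 1, 5 and 10 mir-2209a gave most of the counts in all 18 libraries, with shares between 73.7% and 98.0% in rotenone and between 71.2% and 82.6% in 2-deoxyglucose. At day 20 it gave 61.9% and 64.3% in rotenone (exact 95% intervals 57.4% to 66.3% and 60.2% to 68.4%). In 2-deoxyglucose it gave 27.3% and 22.9% (24.9% to 29.8% and 21.0% to 24.8%).

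mir-2208a took the opposite course in share. These 2 hairpins held most of the counts, so the share of one falls largely as that of the other rises. In level mir-2209a also rose from day 1 to day 20, by 3.42-fold in rotenone and 6.86-fold in 2-deoxyglucose (ratio of group means). The share of mir-2208a at day 1 was between 1.96% and 11.9% in rotenone and between 17.9% and 23.5% in 2-deoxyglucose. At day 10 the ranges overlapped, at 15.4% to 24.7% in rotenone and 15.4% to 20.6% in 2-deoxyglucose. At day 20 the shares were 32.4% and 28.7% in rotenone (intervals 28.2% to 36.8% and 24.9% to 32.7%), against 69.2% and 74.1% in 2-deoxyglucose (66.6% to 71.6% and 72.1% to 76.1%). mir-2208a was thus the main hairpin of the cluster by counts in the 2-deoxyglucose libraries of day 20, and in none of the other 20 libraries.

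The members did not keep fixed proportions to each other. The count of mir-2208a was 0.524 and 0.446 times that of mir-2209a in rotenone at day 20, and 2.53 and 3.24 times in 2-deoxyglucose. The count of mir-2208a was 6.46 and 4.73 times that of mir-2208b in rotenone at day 20 and 24.7 and 31.6 times in 2-deoxyglucose. The count of mir-2208b relative to mir-2209a differed less between the treatments, at 0.0811 and 0.0943 in rotenone and 0.102 and 0.103 in 2-deoxyglucose. The hairpins of like name may be similar in sequence, and how the authors treated reads that match several hairpins is not given in the sources used here, so the split between mir-2208a and mir-2208b, and between mir-2209a, mir-2209b and mir-2209c, is uncertain.

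**Figure D4:**
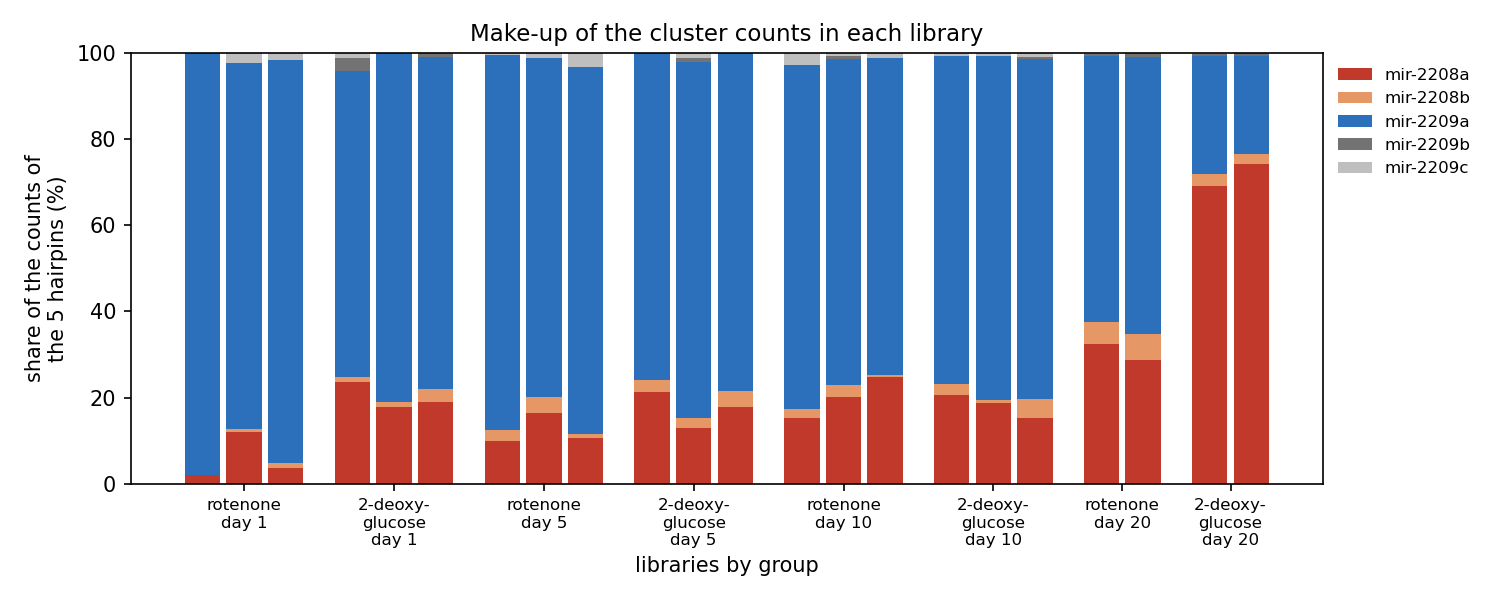
Share of the summed counts of the 5 clustered hairpins (y axis, %) given by each hairpin, 1 bar per library, with rotenone to the left of 2-deoxyglucose at each age. mir-2208a (red) gives 69.2% and 74.1% in the 2-deoxyglucose libraries of day 20, against 32.4% and 28.7% in rotenone, and mir-2209a (blue) gives most counts in the other 20 libraries.

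The relatives mir-2209b and mir-2209c did not pass the filter on low counts and were not tested. mir-2209b had 0 counts in the rotenone libraries of days 1 and 5, which allows up to 0.585 CPM at day 1 and 0.643 CPM at day 5, by a floor of 3 counts over the group. It had 2 and 5 counts in rotenone at day 20, against 7 and 11 in 2-deoxyglucose. Its 2-deoxyglucose libraries held 6 counts in all at day 1, 1 at day 5 and 1 at day 10. mir-2209c, which lies 53 bases from mir-2209a, held at most 4 counts in any library and 1 and 0 counts in rotenone at day 20, against 3 and 1 in 2-deoxyglucose.

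The mir-58 family, with which mir-2209a has been listed, was counted in 5 members, which summed to between 229292 and 251784 CPM in rotenone at day 20 and between 255215 and 266479 CPM in 2-deoxyglucose. From day 1 to day 20, 0 of 5 rose and 4 fell in rotenone, and 0 rose and 3 fell in 2-deoxyglucose (edgeR quasi-likelihood F test), where 29.8% of the 141 hairpins fell in rotenone and 34.0% in 2-deoxyglucose. The median log2 change was -0.60 in rotenone and -0.63 in 2-deoxyglucose, against -0.03 and -0.09 over all hairpins. mir-58b, mir-80 and mir-81 fell in both treatments. The log2 changes of mir-58b were the largest, at -3.55 ± 0.55 in rotenone and -2.33 ± 0.48 in 2-deoxyglucose. They rested on 1 and 3 counts in rotenone at day 20 and 2 and 6 in 2-deoxyglucose. mir-81 stood at -1.33 ± 0.15 in rotenone and -1.03 ± 0.15 in 2-deoxyglucose, and mir-80 at -0.60 ± 0.12 and -0.63 ± 0.12. mir-58a, the member best known for its abundance, stood at 0.03 ± 0.17 and 0.11 ± 0.17. At day 20, 0 of the 5 were called between the treatments, where 0.709% of the 141 hairpins were called. mir-1834, another hairpin of this list, was not analysed here.

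Of the hairpins numbered mir-2207 to mir-2220, apart from the cluster, 16 were in the table and 3 passed the filter. Between days 1 and 20 in rotenone, mir-2220 rose by a log2 change of 2.87 ± 0.57, with 27 counts over the day 20 libraries against 7 at day 1. In the same comparison mir-2212 fell by 0.94 ± 0.37 on that scale, while mir-2210 stood at -0.82 ± 0.51 and was not called. In 2-deoxyglucose mir-2212 (-2.23 ± 0.43) and mir-2210 (-2.35 ± 0.81) fell, and mir-2220 rose, with 20 counts over the day 20 libraries against 1 at day 1. The 2-deoxyglucose libraries of day 20 held 0 and 2 counts of mir-2210. Between the treatments at day 20 none of the 3 was called, where 0.709% of the 141 hairpins were called.

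Likeness was measured as Pearson's correlation of mean log2 CPM over the 8 groups, which share the effects of age and of library scaling. The members had correlations of 0.96 (mir-2208a with mir-2208b), 0.93 (mir-2208a with mir-2209a) and 0.96 (mir-2208b with mir-2209a), and each was among the 5 hairpins most like the others. The median over all tested hairpins was -0.19 for mir-2208a, -0.21 for mir-2208b and -0.17 for mir-2209a. Because the members were chosen with these levels known, nothing is read from their likeness to each other. Outside the cluster, mir-1018 had 0.90 with mir-2208a, 0.96 with mir-2208b and 0.98 with mir-2209a, and mir-239b had 0.91, 0.95 and 0.94 with the same members. mir-2220 was among the 5 most like mir-2208b (0.93) and mir-2209a (0.96), and mir-232 among those most like mir-2208a (0.88). Before day 20, group totals were 1 to 7 counts for mir-2220 and 3 to 15 for mir-2208b, near the limit of detection. mir-1018 averaged 214 ± 5.46 CPM in rotenone and 293 ± 32.5 CPM in 2-deoxyglucose at day 20, and mir-239b 7883 ± 871 CPM in rotenone and 7309 ± 671 CPM in 2-deoxyglucose (SD, n = 2 each). Neither was called between the treatments at day 20, where 0.709% of the 141 hairpins were called. The treatments did not overlap for mir-1018 (log2 difference -0.46 ± 0.18) and overlapped for mir-239b, where 56.7% of the 141 did not overlap.

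**Figure D5:**
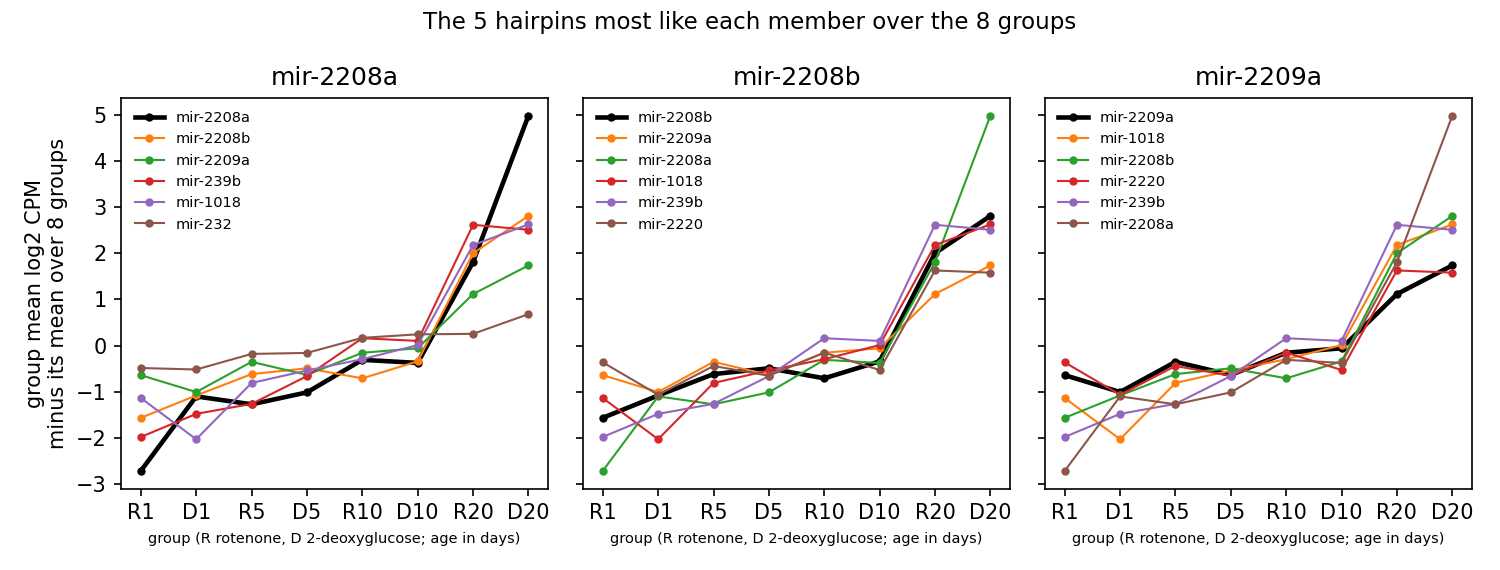
Group means of log2 CPM minus their mean over the 8 groups (y axis) for each member (black) and its 5 most similar hairpins (colours), with groups on the x axis by age and, within an age, rotenone (R) before 2-deoxyglucose (D). Each line has its highest point at a day 20 group, and mir-2208a climbs furthest, to 1131 CPM on average in 2-deoxyglucose.

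Markers of eggs and sperm rose with age beside the members, and those of several other tissues fell. The summed level of the 8 mir-35 family hairpins, which mark eggs and embryos, was between 268785 and 316498 CPM in rotenone at day 20 and between 239190 and 258341 CPM in 2-deoxyglucose. At day 1 it was between 136826 and 187711 CPM in rotenone and between 108669 and 138183 CPM in 2-deoxyglucose. Of the 8, 7 rose from day 1 to day 20 in rotenone and 8 in 2-deoxyglucose, where 34.0% of the 141 hairpins rose in rotenone and 28.4% in 2-deoxyglucose. Between the treatments, 4 of the 8 were called higher in rotenone at day 1 and 4 at day 5, where 9.22% and 8.51% of hairpins were. At day 10, 1 of the 8 was called lower, as were 1.42% of hairpins. At day 20, 0 of the 8 were called, where 0.709% of hairpins were called. The 3 sperm-linked hairpins mir-44, mir-45 and mir-61 summed to between 53695 and 66540 CPM in rotenone at day 20 and between 50842 and 51560 CPM in 2-deoxyglucose, beside 25344 to 27404 CPM in rotenone and 18178 to 25221 CPM in 2-deoxyglucose at day 1. Of these 3, 3 rose from day 1 to day 20 in rotenone and 2 in 2-deoxyglucose; at day 1, where mir-2208a was called lower, 2 were called higher in rotenone than in 2-deoxyglucose, and at day 5, 1 was. None of these 11 hairpins was at 0 in any library. The 2 sperm-linked hairpins called with age in 2-deoxyglucose, and between the treatments at day 1, were mir-44 and mir-45. Their counts were near-equal in every library, such as 12202 and 12146 in rotenone day 1 library 1. They may therefore not be separate markers. mir-61 was not called in either comparison.

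Between days 1 and 20 the muscle hairpin mir-1 fell by 1.97 ± 0.24 on the log2 scale in rotenone and by 1.69 ± 0.24 in 2-deoxyglucose. The intestinal mir-60 fell by 1.12 ± 0.40 in rotenone and by 1.78 ± 0.42 in 2-deoxyglucose. Of the 4 neuronal hairpins, lsy-6 fell, by 1.25 ± 0.35 in rotenone and by 1.36 ± 0.37 in 2-deoxyglucose, and the other three were not called. The seam cell and epidermis hairpins let-7 and lin-4, developmental timing regulators, both fell in both treatments, by unlike amounts. The log2 change of let-7 was -4.14 ± 0.16 in rotenone and -4.11 ± 0.16 in 2-deoxyglucose. That of lin-4 was -1.24 ± 0.18 in rotenone and -1.35 ± 0.18 in 2-deoxyglucose. The glial mir-228 rose in rotenone, with a log2 change of 0.73 ± 0.17, and stood at 0.09 ± 0.17 in 2-deoxyglucose. None of these 9 hairpins was called between the treatments at any age. Of the 141 hairpins, 11.3% were called at day 1, 9.93% at day 5, 5.67% at day 10 and 0.709% at day 20. The part of the egg, sperm and other tissue markers in the changes of mir-2208a, mir-2208b and mir-2209a was not tested.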

How the data were processed

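The table deposited by the authors holds unnormalized counts of 250 miRNA hairpins in 22 libraries; 0 columns belonged to other samples. Library preparation used the TruSeq small RNA kit, per the labels' protocols. The submitters' processing notes name BWA 0.7.12-r1039, SAMtools 1.3.1-9, Trimmomatic 0.36 and CASAVA 1.8.4, without their roles. Genome build, strand use and the treatment of reads matching several hairpins: not given in the sources used here.

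Groups follow the labels' age and treatment; library numbers follow record order and pair nothing. Library pairs within a group differed beyond counting noise (chi-square per degree of freedom at least 12.1). Counts were fitted with edgeR 4.0.16 in R 4.3.3: filterByExpr by group (minimum count 10, minimum total 15) kept 141 hairpins, all 3 members among them; 18 had no count. TMM scaling, 1 model of 8 groups with robust dispersion and quasi-likelihood F tests, Benjamini-Hochberg adjustment at 0.05; the code was tested on simulated data. Standard errors are the log2 difference over the square root of F. Log2 CPM for correlations used a prior count of 2. Alternatives were other scalings, DESeq2 1.42.0, no filter, mir-45 left out, lane as a factor, the compared groups alone and each library left out. Intervals are exact (Clopper-Pearson, or its transform for ratios). The named hairpins are the members, the lists, the 5 most correlated with each member and hairpins within 10 kb. Members and lists were chosen with earlier results of these data known.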

Additional observations from a re-analysis of the deposited data

Results flagged for a closer look

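mir-2209a was the member whose treatments separated in opposite directions at 2 ages. All 3 rotenone libraries lay above all 3 2-deoxyglucose libraries at day 1, a log2 difference of 0.38, and both rotenone libraries lay below both 2-deoxyglucose libraries at day 20, a log2 difference of -0.62. Neither difference was called in the fit, and the change between the ages was not tested. Over all 141 hairpins, 31.2% did not overlap at day 1 and 56.7% at day 20, where each group held 2 libraries. Such a switch was not particular to mir-2209a. For mir-1018, the hairpin most like it, the treatments also did not overlap at either age. Its log2 difference was 1.01 ± 0.24 at day 1 and -0.46 ± 0.18 at day 20.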

How the results depend on the processing

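For the 18 differences of the members, directions and calls were compared with 8 alternatives (fewer where DESeq2 gave no adjusted p or a hairpin failed the filter) and with each library of the compared groups left out. The 6 changes from day 1 to day 20 kept their direction and call throughout. At day 20 the difference of mir-2208a also kept its call (-3.36 to -3.19 over the alternatives), while a fit of the 2 groups alone called mir-2208b (-0.999) and mir-2209a (-0.79). At day 5 lane as a factor gave 0.0477 for mir-2208a and -0.299 for mir-2208b. For mir-2208b, scaling by total counts gave -0.0277, and TMM factors computed after dropping the 5 most abundant hairpins and the mir-35 family gave -0.0857; the cause was not tested.

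Leaving out single libraries gave, at day 1, -2.57 to -1.39 for mir-2208a, with 3 of 6 calls lost. At day 5 it gave -0.28 to 0.39 for mir-2208b and -0.0306 to 0.66 for mir-2209a, and at day 10 -0.25 to 0.55 for mir-2208a and -0.28 to 0.13 for mir-2209a. The alternative scalings moved the median of all hairpins by -0.18 to 0.23 on the log2 scale. No paired analysis was possible because the labels give no replicate numbers that groups share. Depth limits mir-2208b, mir-2209b and mir-2209c, which held 10 counts or fewer in every library before day 20.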
